A study of Mus musculus with 6 samples.

Results

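The genes that encode the translation initiation factors (symbols beginning Eif and a digit) and elongation factors (Eef and a digit) were followed in mouse neutrophils exposed to prostaglandin E2 (PGE2). They were taken from the deposited count table as all protein-coding rows with such a symbol, leaving out the Eif2ak kinase genes, which gave 67 of 45777 genes. Both groups were wild type C57BL/6 bone marrow neutrophils isolated on a Percoll gradient, a density separation that does not select on a surface marker. One group of 3 libraries came from cells kept with 10 µM PGE2 for 24 h, and the other group of 3 libraries from cells kept with the DMSO vehicle for the same time. Polyadenylated RNA was sequenced, and no label gives the age of the mice. The series design states biological replicates without saying whether a replicate is a mouse, a pool or a culture, so the p-values measure the spread between these libraries.

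Initiation begins when eIF2 with GTP brings the initiator tRNA to the small ribosomal subunit, where eIF1, eIF1A and the many-subunit eIF3 help it scan for the start codon. The eIF4F complex, made of the cap-binding eIF4E, the helicase eIF4A and the scaffold eIF4G, recruits that subunit to capped mRNA, and the 4E-binding proteins (4E-BPs) compete with eIF4G for eIF4E until the mTORC1 kinase phosphorylates them. In elongation eEF1A delivers aminoacyl-tRNA, the eEF1B subunits recharge it with GTP, and eEF2 moves the ribosome along unless it is phosphorylated by its kinase, eEF2K. Mature neutrophils make less protein than their precursors but still translate on demand. PGE2 acts largely through receptors that raise cyclic AMP.

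Total counts per library ran from 42091346 to 56238941, and 18242 to 19511 genes had a count. Translation factor genes took 1.18, 1.208 and 1.303% of all counts in the PGE2 libraries, against 0.9916, 1.039 and 1.003% in the vehicle libraries. The 7 mature neutrophil markers summed to 62649.9 to 79166 CPM (each count per 1e6 counts of the library size, scaled by the TMM method) in PGE2 and 65213 to 75194 CPM in vehicle libraries. Most of these sums came from S100a8 and S100a9, which did not pass, at means of 19707 and 42105 CPM with PGE2 and 17488 and 36044 CPM with vehicle. The other 5 of the 7 were lower with PGE2, with log2 fold changes of −0.93 (Csf3r), −0.35 (Cxcr2), −0.87 (Ly6g), −0.98 (Mmp8) and −1.18 (Mmp9). Erythroid markers summed to 15445 to 51017 CPM with PGE2 and 4336 to 19932 CPM with vehicle, and B lineage markers to 579.6 to 842 CPM with PGE2 and 393 to 524 CPM with vehicle. Of all genes tested 10.1% passed as higher and 14.3% as lower, and 16.6% and 18.9% with the replicate number as a block. With DESeq2 the shares were 12.6% and 17%. Of the erythroid list 1 of 8 passed as higher, and 8 of 8 with the replicate number as a block. Of the B lineage list 3 of 8 passed as higher, and 7 of 8 with the block. The immature granulocyte list had 3 of 7 lower, and 6 of 7 with the block, with sums of 2737 to 6515 CPM with PGE2 and 6351 to 11686 CPM with vehicle. The monocyte list had 2 of 6 lower (3 with the block) and the eosinophil list 3 of 5 lower with or without it. The cycling cell list had 1 of 7 higher, 4 with the block and 3 with DESeq2. Of the T and NK list none of 5 passed in edgeR without the block, at an unadjusted p below 0.05 or with DESeq2, and 2 were higher with the block. The part of these other cells in the results on translation factors was not tested.

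Of the 67 genes, 62 had enough counts to be tested, and 16 of them were higher with PGE2 while 5 were lower (edgeR, adjusted p below 0.05 over 15947 genes). That is 25.8% higher and 8.06% lower, against 10.1% higher and 14.3% lower among all genes tested. The median log2 fold change of the tested members was 0.2, with 46 values above 0 and 16 below, against a median of 0.04 over all genes. In 30 members (48.4%) every PGE2 library lay above every vehicle library, against 20.5% of all genes, and in 9 (14.5%) every PGE2 library lay below, against 21.8% of all genes. In all, the groups were apart in 39 of the 62, against 42.3% of all genes. Of the 41 members that did not pass, 18 had groups that did not overlap, and of these Eif4b, Eif4e2, Eif3a and Eif5a2 lay below. The matching share among all genes that did not pass was not counted, so the 18 of 41 cannot be read as a result about the members. In bulk RNA a change in the number of cells of a type and a change in RNA per cell cannot be told apart.

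**Figure D1:**
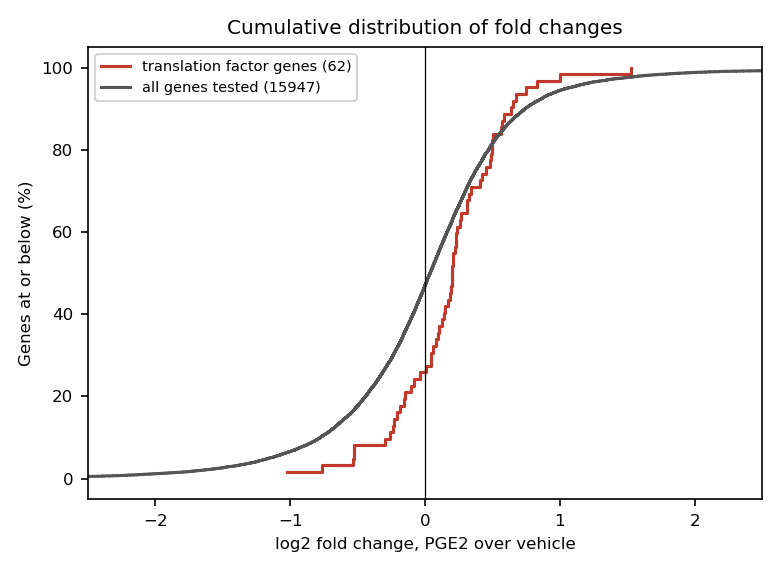
Cumulative share of genes (vertical axis, %) at or below each log2 fold change of PGE2 over vehicle (horizontal axis) for the 62 tested translation factor genes and for all 15947 tested genes. The curve of the translation factor genes lies to the right over its middle part, with a median of 0.2 against 0.04.

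Same-numbered libraries were taken as pairs because their deviations correlated weakly (r = 0.258, 0.174 and 0.187), which does not establish a pairing. With the number as a block 24 members were higher (38.7%, against 16.6% of all genes) and 6 were lower (9.68%, against 18.9%). Those that joined as higher were Eif1ad, Eif2s1, Eif2s2, Eif3d, Eif3g, Eif5a, Eef1g and Eef1akmt2, and Eif4e2 joined as lower. The unblocked count of higher members was 10 of 62 without PGE2 replicate 2, against 6.8% of all genes. It was also 10 without vehicle replicate 2, against 6.39% of all genes. The count of lower members was 2 without PGE2 replicate 2 (against 11% of all genes) or vehicle replicate 1 (11.6%). It was 3 without PGE2 replicate 3 (11.4%), vehicle replicate 2 (10.3%) or vehicle replicate 3 (11.7%). On library totals alone the higher share of the members' calls was 85.7%, and on the authors' TPM (a level per transcript length) it was 68.8%, against 76.2% with the TMM scaling. The same share among all genes was 55.5% on totals, 30% on TPM and 41.5% with TMM.

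**Figure D2:**
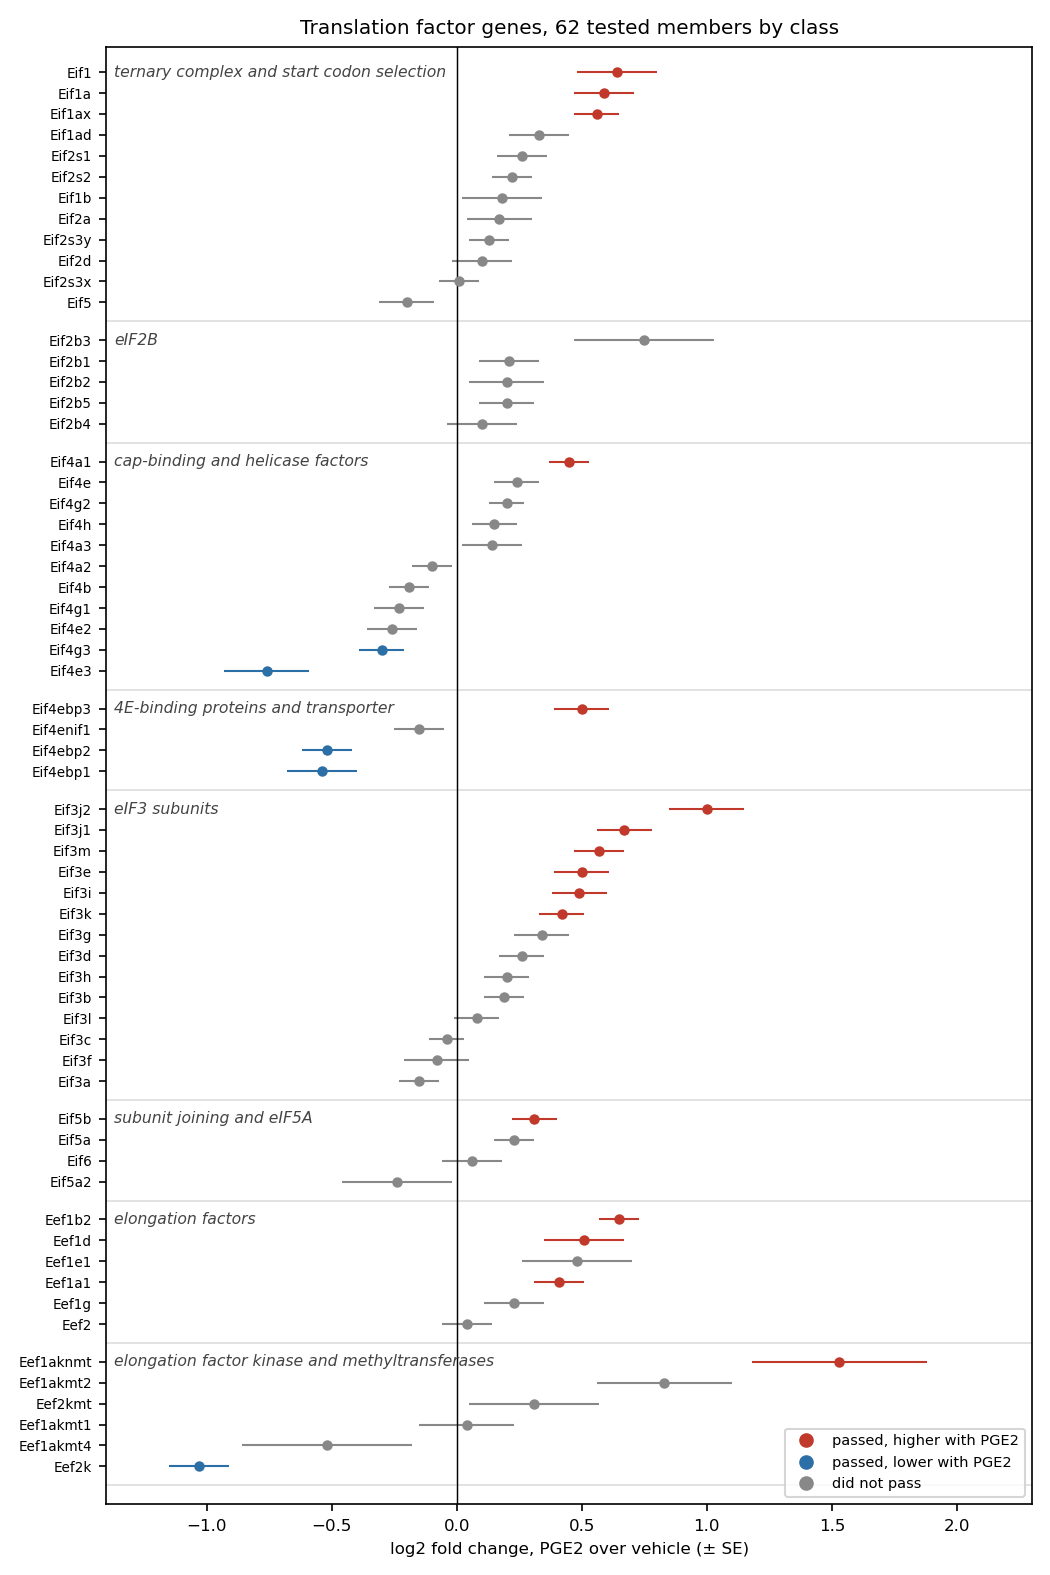
Log2 fold change of PGE2 over vehicle (horizontal axis, bars are ± SE) for the 62 tested translation factor genes, grouped by their role. Most points lie right of 0, and the 5 genes that passed as lower are Eef2k, Eif4e3, Eif4ebp1, Eif4ebp2 and Eif4g3.

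RefSeq promoter sequences (GRCm38.p6, 250 bases before to 50 after each start) were found for 51 of the 67 genes, 65 promoters in all. They are shown because the E-box CACGTG, a palindrome that MYC-MAX and related factors bind, was in 17 of the 65 (26.2%), against 9.54% of the promoters of tested genes and 7.15% of all promoters in the table. Counted by gene, 15 of 51 members (29.4%) and 1304 of 11558 tested genes (11.3%) had at least 1 such promoter. The 51 hold 3 members that were not tested, of which 1, Eef1akmt4-ece2, had the E-box. The same E-box was counted for Eef1akmt4 and Eef1akmt4-ece2, and another in overlapping promoters of Eif5a. Such repeats were not looked for among the other genes. Windows of 60 bases around the E-box are printed for the members that passed the test, then the Eef2 window with the cyclic AMP response element TGACGTCA, read 5′ to 3′ on the gene's strand with the motif in capitals. They lie at chr7:120842774-120842833 (Eef2k, + strand), chr11:69672579-69672638 (Eif4a1, − strand), chr7:28981899-28981958 (Eif3k, − strand), chr1:162548459-162548518 (Eef1aknmt, − strand) and chr10:81176591-81176650 (Eef2, + strand).
Eef2k: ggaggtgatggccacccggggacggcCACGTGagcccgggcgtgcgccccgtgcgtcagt
Eif4a1: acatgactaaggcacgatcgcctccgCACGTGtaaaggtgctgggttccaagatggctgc
Eif3k: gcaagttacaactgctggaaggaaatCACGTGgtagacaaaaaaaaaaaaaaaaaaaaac
Eef1aknmt: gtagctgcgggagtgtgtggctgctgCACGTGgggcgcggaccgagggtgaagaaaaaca
Eef2: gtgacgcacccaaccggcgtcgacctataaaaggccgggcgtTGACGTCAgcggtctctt

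Of the members with a matched promoter, the E-box was found for 3 of 10 that were higher, 1 of 3 that were lower and 10 of 35 that did not pass, so both directions hold it. The cyclic AMP response element was in 1 of 65 member promoters (1.54%), that of Eef2, against 2.8% of the promoters of tested genes. The C/EBP-ATF element TGATGNAA, searched like TGACGTCA on both strands, was in 2 of 65 (3.08%), an Eef2k and the Eif2s3x promoter, against 2.51%. A run of letters is a description of the sequence and not a site of binding.

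Among the 12 genes for the initiator tRNA complex and start codon selection, 3 were higher with PGE2 and none was lower in edgeR's test, nor at an unadjusted p below 0.05 or with DESeq2, and 11 of the 12 fold changes were positive, with a median of 0.2. Eif1ax, the X-linked gene for eIF1A, had 41.2, 41.7 and 44 CPM in PGE2 libraries, against 29.5, 30 and 26.4 CPM in vehicle libraries. Its paralog Eif1a had 30.4, 31.9 and 24.7 CPM with PGE2, against 19.3, 19.2 and 19.4 CPM with vehicle. Both genes for eIF1A were thus higher in every PGE2 library, with log2 fold changes of 0.56 ± 0.09 (SE, edgeR adjusted p = 0.00341) for Eif1ax and 0.59 ± 0.12 (adjusted p = 0.0084) for Eif1a. On log2(TPM + 1) with limma the Eif1ax value was 0.42 (adjusted p = 0.0627).

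Eif1, whose product keeps the scanning ribosome from starting at poor codons, was the most abundant gene of this class per length, at 727 ± 62.2 TPM with PGE2 and 505 ± 65.5 TPM with vehicle (SD, n = 3 each). Its counts were 486, 667 and 554 CPM in PGE2 libraries, against 288, 417 and 393 CPM in vehicle libraries. The groups did not overlap, and the log2 fold change was 0.64 ± 0.16 (edgeR adjusted p = 0.0248, 0.00058 with the replicate block). Without PGE2 replicate 2 its adjusted p was 0.0781, and without PGE2 replicate 3 it was 0.0527.

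Of the subunits of eIF2 itself, Eif2s1 (the alpha subunit, which stress kinases phosphorylate) had a log2 fold change of 0.26, Eif2s2 (beta) of 0.22, Eif2s3x (X-linked gamma) of 0.01 and Eif2s3y (its Y-linked paralog) of 0.13, and none passed in edgeR without the block. With the block Eif2s1 had an adjusted p of 0.0453 and Eif2s2 of 0.0392. Eif1ad, Eif1b, Eif2a and Eif2d, which may deliver tRNA in other ways in the case of Eif2a and Eif2d, did not pass, and Eif1ad had an adjusted p of 0.0811 without and 0.0228 with the block. Eif5, the GTPase activator of eIF2, had the one negative value of the class, −0.2 (adjusted p = 0.237). It was at 249, 249 and 227 TPM with PGE2, against 310.1, 310.1 and 284 TPM with vehicle, which passed as lower on log2(TPM + 1) with limma (−0.32, adjusted p = 0.037). None of the 5 genes for eIF2B, the exchange factor that recharges eIF2 and is the target of the integrated stress response, passed with or without the block in edgeR or with DESeq2 (1 at an unadjusted p below 0.05), and all 5 had positive values with a median of 0.2. Eif2b2, the most abundant of them per length over all 6 libraries, had 22, 19.6 and 27.4 CPM in PGE2 and 17.9, 22 and 20.3 CPM in vehicle libraries, and the groups overlapped (0.2 ± 0.15, edgeR adjusted p = 0.368). Eif2b3, the least abundant, had 1.74, 3.16 and 2.21 CPM with PGE2, against 1.33, 1.37 and 1.53 CPM with vehicle, with no overlap but an adjusted p of 0.0951, and of 0.0495 without PGE2 replicate 1.

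In the cap-binding and helicase class, 1 of 11 tested genes was higher and 2 were lower, with a median of −0.1. Eif4a1, a helicase that unwinds mRNA leaders, had 245, 266 and 266 CPM in PGE2 libraries, against 177, 197 and 195 CPM in vehicle libraries. Its paralog Eif4a2 had 365, 338 and 315 CPM with PGE2, against 365, 361 and 368 CPM with vehicle. Eif4a1 was higher without overlap (0.45 ± 0.08, edgeR adjusted p = 0.00578), while Eif4a2 overlapped between groups (−0.1 ± 0.08, adjusted p = 0.407). Per length the ratio of Eif4a1 to Eif4a2 was 0.89, 1.02 and 1.12 in PGE2 libraries, against 0.64, 0.726 and 0.761 in vehicle libraries, a comparison chosen after the values were seen. Of the 100-base windows in the Eif4a1 transcript 60.8% also occur in Eif4a-ps4, a pseudogene at 7.07 ± 0.835 CPM with PGE2 and 5.47 ± 0.306 CPM with vehicle (SD, n = 3 each), so its reads may be split between both loci.

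Eif4e, the main cap-binding protein gene, had 31, 34.7 and 32 CPM with PGE2, against 28.1, 28.3 and 26.4 CPM with vehicle, without overlap but with an edgeR adjusted p of 0.0957 (0.24 ± 0.09). Per length it was at 9.41 ± 0.685 TPM with PGE2 and 9.67 ± 0.828 TPM with vehicle (SD, n = 3 each), so the sign of its difference depends on the scale. It passed as higher in edgeR on library totals alone (0.33, adjusted p = 0.0383). With the trend of each library on transcript length and GC content removed, it also passed as higher (0.32, adjusted p = 0.035). Eif4e3, a cap-binding homolog, had 17.7, 13 and 11.8 CPM in PGE2 libraries, against 27.6, 23.4 and 21.2 CPM in vehicle libraries. It was lower in every PGE2 library (−0.76 ± 0.17, edgeR adjusted p = 0.0149, 0.000561 with the replicate block). Its adjusted p was 0.0552 without PGE2 replicate 2, 0.0519 without PGE2 replicate 3 and 0.0545 without vehicle replicate 1. Gpr27, a gene on the opposite strand that starts inside the Eif4e3 locus (chr6:99621879-99692873, mm10), was also lower (−2.75 ± 0.25, adjusted p = 0.000421). In GENCODE M21 no exon of Gpr27 overlapped an Eif4e3 exon, and Gm20696 shared 373 exon bases with Eif4e3 on the same strand. Without strand-aware counting the reads of genes that overlap on opposite strands cannot be told apart. No label or header says whether the counting used the strand.

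Eif4g3, an eIF4G scaffold, had 193, 195 and 189 CPM with PGE2, against 260.3, 224 and 225 CPM with vehicle. All 3 PGE2 libraries lay below (−0.3 ± 0.09, edgeR adjusted p = 0.0384), but the adjusted p was between 0.0632 and 0.101 with any single library left out. With the trend of each library on transcript length and GC content removed the value was −0.01 (adjusted p = 0.949). The other scaffold genes did not pass, Eif4g1 with 91.8 ± 6.48 CPM in PGE2 and 108 ± 10.9 CPM in vehicle libraries, and Eif4g2, whose product lacks the eIF4E-binding site, with 619.7 ± 13.4 CPM in PGE2 and 539 ± 6.73 CPM in vehicle libraries (SD, n = 3 each). With that trend removed Eif4g2 passed as higher (0.4, adjusted p = 0.00938). Eif4e2, a cap-binding repressor, passed as lower only with the replicate block among the alternatives tried (−0.26, adjusted p = 0.0498, 0.0888 without it). The helicase partners Eif4b and Eif4h and the exon junction helicase Eif4a3 did not pass.

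The 3 genes for 4E-BPs, the repressors of eIF4E, moved in both directions. Eif4ebp1 had 62.2, 55.7 and 41.8 CPM in PGE2 libraries, against 75.2, 83.5 and 72.9 CPM in vehicle libraries. Eif4ebp2 had 207, 207 and 212 CPM with PGE2, against 259, 318 and 322 CPM with vehicle. Eif4ebp3 had 24.2, 26.6 and 21.3 CPM with PGE2, against 17, 17.7 and 16.4 CPM with vehicle. None of the 3 overlapped between groups. Eif4ebp1 and Eif4ebp2 fell, with log2 fold changes of −0.54 ± 0.14 (edgeR adjusted p = 0.0291) and −0.52 ± 0.1 (adjusted p = 0.00691), and Eif4ebp3 rose by 0.5 ± 0.11 (adjusted p = 0.0153). Eif4ebp2 kept its call with each library left out and lost it with the length and GC trend removed (−0.31, adjusted p = 0.0725). The adjusted p of Eif4ebp1 was 0.064 without PGE2 replicate 2, 0.0629 without vehicle replicate 1, 0.0997 without vehicle replicate 2 and 0.0517 without vehicle replicate 3. That of Eif4ebp3 was 0.0541 without PGE2 replicate 2 and 0.0544 without vehicle replicate 3.

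Reads of Eif4ebp3 may be shared: 62.8% of its 100-base windows also occur in AC115631.1, an annotated gene that overlaps it on the same strand. Ankhd1, which ends just before it on the same strand, was lower with PGE2, at 85.9 ± 9.03 CPM against 142 ± 23.3 CPM with vehicle (SD, n = 3 each), with a log2 fold change of −0.73 ± 0.13 (edgeR adjusted p = 0.00556). Eif4enif1, whose product carries eIF4E to processing bodies, overlapped between groups at 82, 79.4 and 67.5 CPM with PGE2 and 91.1, 81.6 and 82 CPM with vehicle (−0.15 ± 0.1, adjusted p = 0.314).

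Ratios per length put these genes side by side, as a description chosen after the values were seen. The summed TPM of Eif4ebp1 and Eif4ebp2 over that of Eif4e was 17.3, 15.9 and 15.7 in PGE2 libraries, against 22.3, 26.7 and 25.9 in vehicle libraries. With Eif4ebp3 added to the sum it was 19.9 ± 0.86 with PGE2 and 27.6 ± 2.38 with vehicle (SD, n = 3 each). Transcripts for the repressors thus outnumbered those of Eif4e in all 6 libraries, by less in the PGE2 libraries. Eif4ebp3 stood to the other 2 repressor genes as 0.203, 0.239 and 0.219 with PGE2, against 0.117, 0.102 and 0.104 with vehicle. These are RNA levels, and neither the proteins nor their phosphorylation were measured.

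**Figure D3:**
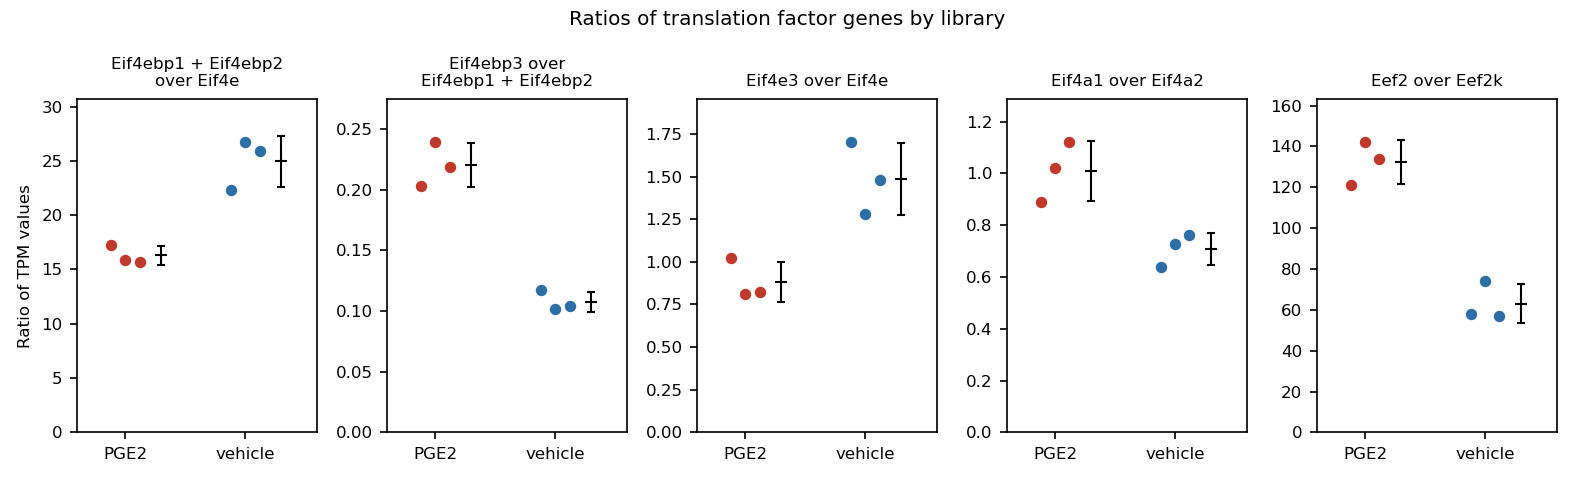
Ratios of TPM values (vertical axes from 0) in the 3 PGE2 and 3 vehicle libraries, with the mean and SD in black beside the points. The ratio of Eif4ebp1 and Eif4ebp2 to Eif4e lies between 15.7 and 17.3 in PGE2 and between 22.3 and 26.7 in vehicle libraries. None of the 5 ratios overlaps between groups, but they were chosen after the values were seen and each holds a gene that passed. The ratio of Eif4g1 to Eif4g3, not drawn, overlaps, at 0.641, 0.6 and 0.701 with PGE2 and 0.643, 0.673 and 0.595 with vehicle.

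Of the 14 genes for eIF3, the scaffold of the initiating small subunit, 6 were higher with PGE2 (8 with DESeq2) and none was lower in edgeR's test, at an unadjusted p below 0.05 or with DESeq2. The median log2 fold change was 0.3. In 11 of the 14 the groups did not overlap, against 42.3% of all genes. Of these, Eif3a alone had every PGE2 library below every vehicle library. Eif3j1, a loosely bound subunit, had 41, 49.2 and 43 CPM in PGE2 libraries, against 26.9, 30.8 and 25.9 CPM in vehicle libraries, and rose by 0.67 ± 0.11 (edgeR adjusted p = 0.00359). Its near copy Eif3j2 had 9.43, 11.7 and 9.03 CPM with PGE2, against 4.76, 5.31 and 5.03 CPM with vehicle, and rose by 1.0 ± 0.15 (adjusted p = 0.00273). Of the Eif3j2 windows 84% also occur in Eif3j1, so reads may be split between them and neither value stands alone. Spg11, which overlaps Eif3j1 on the opposite strand, was lower (−0.55 ± 0.1, adjusted p = 0.00634).

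Eif3m, a subunit of the helical core, had 68.3, 73.5 and 85.6 CPM with PGE2, against 49.3, 51.1 and 52.9 CPM with vehicle, and rose by 0.57 ± 0.1 (edgeR adjusted p = 0.0052). Eif3e had 88.8, 101 and 114 CPM with PGE2, against 72.2, 66.4 and 76.4 CPM with vehicle (0.5 ± 0.11, adjusted p = 0.013). Eif3k had 96.2, 101 and 102 CPM with PGE2, against 66.3, 75.2 and 81 CPM with vehicle (0.42 ± 0.09, adjusted p = 0.0132). These 3 belong to the core with Eif3a, Eif3c, Eif3f, Eif3h and Eif3l, none of which passed, so the higher values did not extend to the whole core at this threshold. Eif3i had 36.7, 38.4 and 45.7 CPM with PGE2, against 29.7, 26.5 and 29.7 CPM with vehicle (0.49 ± 0.11, adjusted p = 0.0144). Of its companions in the other module of the complex, Eif3g had 0.34 (adjusted p = 0.0532, 0.0106 with the replicate block) and Eif3b 0.19 (0.111). Eif3d, which can itself bind the cap, had 0.26 (0.067, and 0.0229 with the block). Without vehicle replicate 2 the adjusted p of Eif3e was 0.0579 and that of Eif3i was 0.0628, and without PGE2 replicate 1 that of Eif3g was 0.0202. The smallest value was that of Eif3a, the largest subunit, at −0.15 (adjusted p = 0.236).

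Per length, Eif3h, Eif3k and Eif3f were the most abundant subunit genes, and their order differed between the groups. Eif3h was at 188, 146 and 199 TPM with PGE2 and 188, 155 and 155 TPM with vehicle, which overlapped (0.2 ± 0.09 on counts, edgeR adjusted p = 0.133). Eif3k, the highest by mean with PGE2, was at 189.8 ± 16.4 TPM with PGE2 and 152 ± 9.69 TPM with vehicle (SD, n = 3 each). Eif3f, the highest by mean with vehicle, was at 150.2 ± 19 TPM with PGE2 and 170 ± 17.5 TPM with vehicle (SD, n = 3 each), and Eif3j2 was last at 6.69 ± 0.335 TPM with PGE2 and 3.63 ± 0.0603 TPM with vehicle. The summed TPM of all 14 was 1113, 1006 and 1260.3 in PGE2 libraries, against 1055, 972 and 1025 in vehicle libraries, and overlapped. On log2(TPM + 1) with limma 3 of the 14 passed as higher, and Eif3e (adjusted p = 0.0752), Eif3i (0.1) and Eif3k (0.0531) did not.

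**Figure D4:**
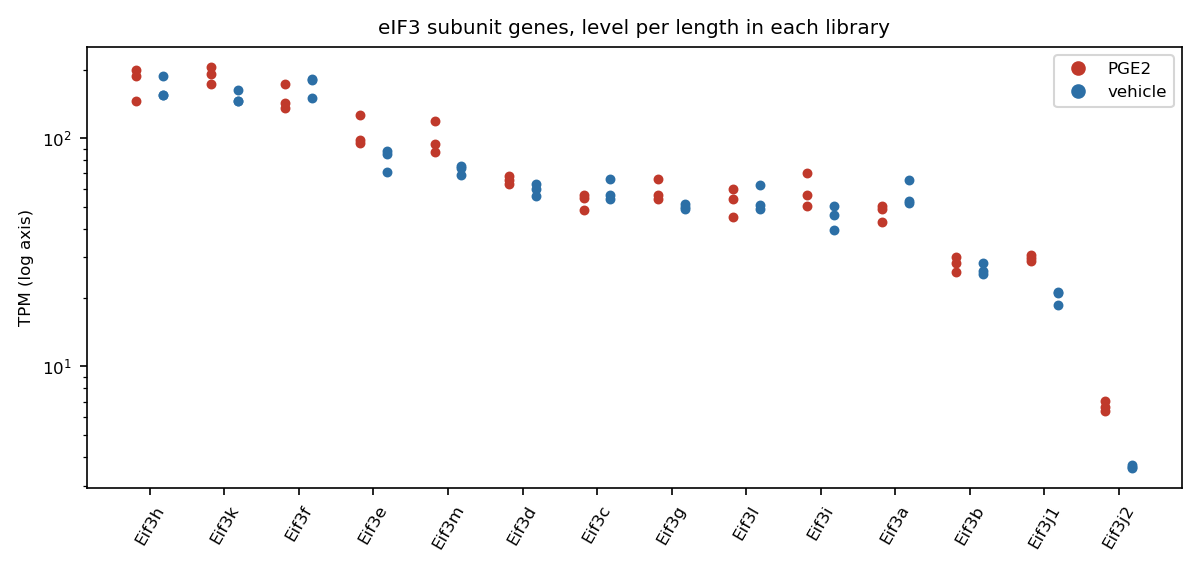
Level per length (vertical log axis, TPM) of the 14 eIF3 subunit genes in each of the 3 PGE2 and 3 vehicle libraries, ordered by mean level. The levels run from 205 TPM in an Eif3k library to 3.57 TPM in an Eif3j2 library, and the points of Eif3j1 and Eif3j2 do not overlap between groups.

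Of the 4 genes for subunit joining and eIF5A, 1 was higher. Eif5b, the GTPase that joins the large subunit, had 65.6, 64.3 and 59.8 CPM with PGE2, against 55.3, 51 and 46.5 CPM with vehicle (0.31 ± 0.09, edgeR adjusted p = 0.042). The groups did not overlap, but the adjusted p was 0.0789 without PGE2 replicate 1, 0.105 without PGE2 replicate 2, 0.12 without vehicle replicate 2, 0.132 without vehicle replicate 3 and 0.401 on log2(TPM + 1). Eif5a, the hypusine-bearing factor that relieves stalled ribosomes, had 338, 340.5 and 325 CPM with PGE2, against 264, 299 and 292 CPM with vehicle (0.23 ± 0.08). It lay higher in every PGE2 library, with an adjusted p of 0.0747 without and 0.0423 with the replicate block. Eif5a2 and Eif6, which keeps free large subunits apart, did not pass.

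Elongation factors were the most abundant class, with a summed level of 4808, 4731 and 5473 TPM in PGE2 libraries, against 4242, 4298 and 4155 TPM in vehicle libraries. Of the 6 tested genes 3 were higher in edgeR and also in DESeq2, all 6 had positive values, and the median was 0.45. Eef1a1 alone made up 39.4% of the summed TPM of all 67 genes. It had 3863, 4428 and 4275 CPM with PGE2, against 2918, 3429 and 3129.6 CPM with vehicle (0.41 ± 0.1, edgeR adjusted p = 0.0225), without overlap. Its adjusted p was 0.0894 without PGE2 replicate 2, 0.0517 without vehicle replicate 2, 0.0759 without vehicle replicate 3 and 0.0852 on log2(TPM + 1) with limma. Of its windows 26.7% also occur in other annotated genes, the most in Gm13456.

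The exchange factor that recharges eEF1A showed the smallest adjusted p among the higher members. Eef1b2, its nucleotide-exchange subunit, had 229, 256 and 246 CPM in PGE2 libraries, against 149, 157 and 160.5 CPM in vehicle libraries (0.65 ± 0.08, edgeR adjusted p = 0.00112). Eef1d, a second exchange subunit, had 37.7, 54.1 and 51.5 CPM with PGE2, against 28.7, 35.9 and 36.1 CPM with vehicle (0.51 ± 0.16, adjusted p = 0.0476). The Eef1b2 call held in each alternative tried, while the adjusted p of Eef1d was 0.138 without PGE2 replicate 2, 0.117 without PGE2 replicate 3, 0.12 without vehicle replicate 1, 0.0877 without vehicle replicate 2 and 0.0745 without vehicle replicate 3. Eef1g, the structural subunit, overlapped between groups at 137, 161 and 167 CPM with PGE2 and 112, 137 and 148 CPM with vehicle (0.23 ± 0.12, adjusted p = 0.225, 0.0278 with the replicate block). Of the Eef1g windows 49.4% also occur in other annotated genes, the most in Gm4366, so its reads may be split between loci. Eef1e1, a component of the multi-tRNA synthetase complex, had 5.13 ± 0.744 CPM with PGE2 and 3.67 ± 0.906 CPM with vehicle (SD, n = 3 each) and did not pass.

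Eef2, the translocase, had 1298, 1488 and 1588 CPM in PGE2 libraries, against 1383, 1460.1 and 1405 CPM in vehicle libraries. The groups overlapped (0.04 ± 0.1, edgeR adjusted p = 0.8). Eef2k, the calcium and calmodulin dependent kinase that inactivates eEF2 and is activated through protein kinase A and restrained by mTORC1, had 21.8, 19.1 and 24.1 CPM with PGE2, against 44, 39.8 and 48.5 CPM with vehicle. It fell in every PGE2 library (−1.03 ± 0.12, adjusted p = 0.000927, 6.4e-05 with the block), the smallest adjusted p of all 62 genes, and its call held in each alternative tried. The gene lies at chr7:120842642-120907219 on the + strand (mm10). Per length Eef2 stood to Eef2k as 121, 142 and 134 in PGE2 libraries, against 58.1, 73.9 and 56.9 in vehicle libraries, again a ratio chosen after the values were seen.

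Of the methyltransferases that modify elongation factors, Eef1aknmt, which methylates eEF1A, was higher, at a low level. It had 3.3, 8.01 and 8.3 CPM with PGE2, against 1.83, 2.27 and 2.69 CPM with vehicle. The groups did not overlap, PGE2 replicate 1 lay nearest to the vehicle libraries, and the log2 fold change of 1.53 ± 0.35 (edgeR adjusted p = 0.0157) was the largest of the members. Its adjusted p was 0.0527 without PGE2 replicate 2, 0.0522 without PGE2 replicate 3, 0.0567 without vehicle replicate 1 and 0.0529 without vehicle replicate 2. Eef1akmt2 had 3.46, 5.78 and 3.39 CPM with PGE2, against 2.01, 2.24 and 2.82 CPM with vehicle (0.83 ± 0.27, adjusted p = 0.0576, 0.0343 with the replicate block). Eef1akmt1, Eef1akmt4 and Eef2kmt did not pass. Eef1a2, the eEF1A form of muscle and nerve, Eif4e1b, an egg-cell form of eIF4E, Eif4a3l1 and Eef1akmt3 had no count in any library. Eef1akmt4-ece2 had 2 counts, both in PGE2 replicate 1.

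**Figure D5:**
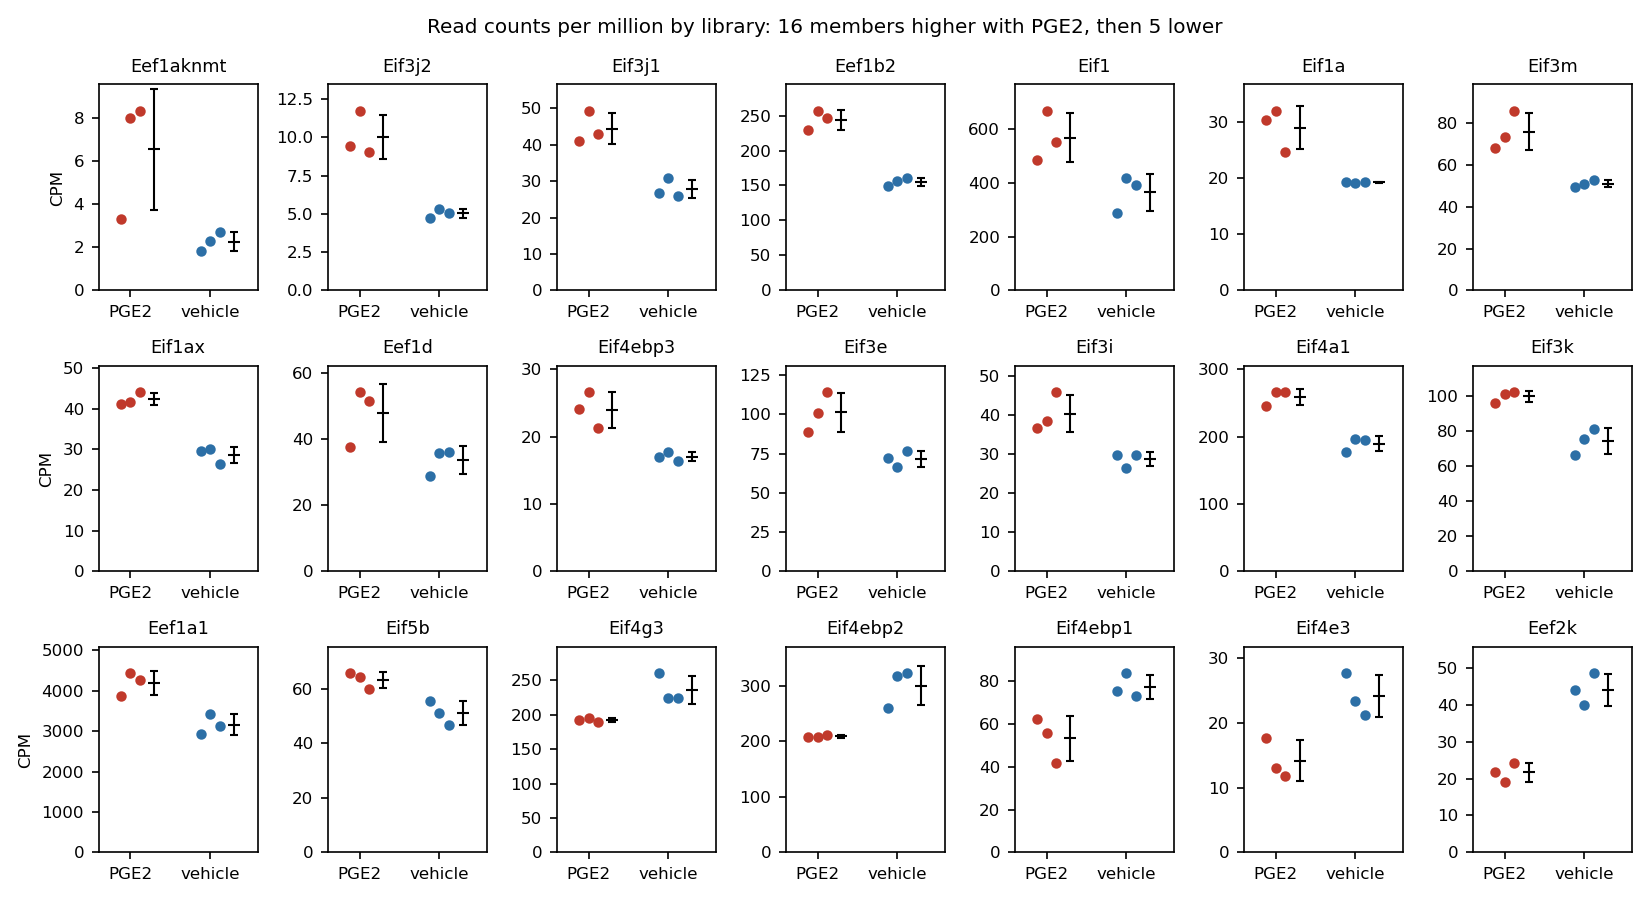
CPM values (vertical axes from 0) in each of the 3 PGE2 and 3 vehicle libraries for the 16 genes that passed as higher and then the 5 that passed as lower, with the mean and SD in black beside the points. In each of the 21 panels the groups do not overlap, with Eef1aknmt at 3.3 to 8.3 CPM with PGE2 and 1.83 to 2.69 CPM with vehicle.

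The members that passed as higher had shorter transcripts than those that passed as lower. The median longest protein-coding transcript was 1794 bases for the higher members (15 of 16 with a length), 5784 bases for the 5 lower and 2553 bases for those that did not pass. All genes followed the same order, at 1942 bases for genes higher with PGE2, 3988 bases for genes lower and 2767 bases for all tested. Each library's length and GC trend was removed in an alternative chosen after seeing the data. There 13 of 62 members were higher, against 9.58% of all genes, and 3 were lower, against 12.6%. Those that joined as higher were Eif4e (adjusted p = 0.035), Eif4g2 (0.00938) and Eif3b (0.0409). Of the 21 called members 13 kept their call, and the others were Eif1 (adjusted p = 0.0624), Eif3e (0.102), Eif3i (0.0599), Eif3k (0.0554), Eif4ebp2 (0.0725), Eif4ebp3 (0.101), Eef1a1 (0.0819) and Eif4g3 (0.949). With the trend removed and the replicate block in the same fit, 20 of the 21 kept it, all but Eif4g3 (0.946).

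Genes that act on these factors without carrying their symbols were counted in the same fit, where 10.1% of all genes were higher and 14.3% lower. With the replicate block these shares were 16.6% and 18.9%, and with DESeq2 they were 12.6% and 17%. Of 11 regulators of eIF4E and eIF4A, 1 was higher and 4 were lower, and 2 were higher and 4 lower with the replicate block. Mknk1, a kinase that phosphorylates eIF4E, had 117, 124 and 111 CPM in PGE2 libraries, against 199, 207 and 211 CPM in vehicle libraries (−0.81 ± 0.08, edgeR adjusted p = 0.000504). Cyfip2, whose product binds FMRP and belongs to the actin-regulating WAVE complex, had 262, 192 and 221 CPM with PGE2, against 501, 425 and 413 CPM with vehicle (−0.99 ± 0.13, adjusted p = 0.00146). Both fell without overlap, and both calls held with each library left out. Cyfip1, the paralog of Cyfip2, chosen after its values were seen, overlapped between groups (−0.19 ± 0.18, edgeR adjusted p = 0.495, 0.129 with the replicate block). Mknk2, another eIF4E kinase gene, chosen after its values were seen, had 332, 424 and 418 CPM with PGE2, against 269.7, 328 and 366 CPM with vehicle. Its groups overlapped (0.29 ± 0.14, edgeR adjusted p = 0.178), and with the replicate block it passed as higher (adjusted p = 0.0165). Ncbp2, a nuclear cap-binding subunit, was higher (0.45 ± 0.11, adjusted p = 0.0184), with an adjusted p of 0.0579 without PGE2 replicate 2, 0.0506 without PGE2 replicate 3, 0.0748 without vehicle replicate 2, 0.0646 without vehicle replicate 3 and 0.0533 with the length and GC trend removed.

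Of 12 genes for the kinases and phosphatases of eIF2 alpha and their regulators (Dnajc3, Gcn1 and Impact), 1 was higher and 2 were lower. The median was −0.19. With the replicate block 2 were higher and 4 were lower, and DESeq2 gave 1 higher and 4 lower. Among those the block added were Eif2ak2, the double-stranded RNA kinase PKR (−0.59, adjusted p = 0.000475, 0.0805 without the block), and Eif2ak1, the heme-regulated kinase (adjusted p = 0.0309 with and 0.244 without the block), both chosen after their values were seen. Eif2ak3, the endoplasmic reticulum stress kinase PERK, had 107, 98.9 and 102 CPM with PGE2, against 173, 181 and 184 CPM with vehicle, and fell by 0.81 ± 0.08 on the log2 scale (edgeR adjusted p = 0.000461). Ppp1r15a, the stress-induced phosphatase subunit GADD34, had 367, 714 and 208 CPM with PGE2, against 94.1, 179.8 and 83.6 CPM with vehicle. It rose by 1.85 ± 0.46 (adjusted p = 0.0205), with a wide spread in both groups and replicate 2 highest in each. Its adjusted p was 0.0508 without PGE2 replicate 2, 0.0709 without vehicle replicate 1 and 0.0652 without vehicle replicate 3. The catalytic subunit gene Ppp1ca, shared with many other phosphatase complexes, was lower (−0.32 ± 0.08, adjusted p = 0.0262). That adjusted p became 0.0626 without PGE2 replicate 1, 0.0802 without PGE2 replicate 2, 0.0534 without PGE2 replicate 3, 0.117 without vehicle replicate 2 and 0.0837 without vehicle replicate 3.

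Of 15 genes of mTORC1 and its upstream regulators, 1 was lower and none was higher in edgeR's test. With the replicate block 5 were lower and 3 higher, against 18.9% and 16.6% of all genes. At an unadjusted p below 0.05, 5 were lower and 1 was higher. DESeq2 gave 4 lower and none higher, against 17% and 12.6% of all genes. The one that passed was Tsc2, an inhibitor of the pathway (−0.42 ± 0.11, edgeR adjusted p = 0.0235). Its adjusted p was 0.0532 without PGE2 replicate 2, 0.0737 without PGE2 replicate 3, 0.0672 without vehicle replicate 1 and 0.0571 without vehicle replicate 3. With the length and GC trend removed its value was −0.18 (adjusted p = 0.262). Of 8 poly(A)-binding proteins and partners, Paip2, which pulls the poly(A)-binding protein off mRNA, was higher (0.4 ± 0.1, adjusted p = 0.0221), and Larp4, which binds poly(A) tails, was lower (−0.5 ± 0.1, adjusted p = 0.00971), and 3 were higher and 2 lower with the replicate block. Paip2 had an adjusted p of 0.0695 without PGE2 replicate 2 and 0.0532 without vehicle replicate 2, and a value of 0.2 (adjusted p = 0.178) with the length and GC trend removed.

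Of 8 termination and recycling genes, 1 passed (2 with the replicate block), the release factor gene Etf1, at 155, 175 and 153 CPM in PGE2 libraries, against 122, 119 and 120.1 CPM in vehicle libraries (0.42 ± 0.08, edgeR adjusted p = 0.00782). Of 10 other factors listed for scanning and start codon use, 2 were higher, and with the block 3 were higher and 1 was lower. Those without the block were Rpl22l1 (1.29 ± 0.29, adjusted p = 0.0132), a ribosomal protein paralog, and Ltv1 (0.45 ± 0.12, adjusted p = 0.0292), which matures the small subunit, and neither is itself a scanning factor. Of 9 genes for hypusine and diphthamide synthesis, the modifications of eIF5A and eEF2, 2 were higher, both for diphthamide, Dph3 (0.52 ± 0.15, adjusted p = 0.0342) and Dph5 (0.65 ± 0.18, adjusted p = 0.0291). The 8 selenocysteine genes gave 1 higher, Trnau1ap (0.51 ± 0.14, adjusted p = 0.03), and 2 lower, Sephs2 (−0.43 ± 0.11, adjusted p = 0.0219) and Secisbp2l (−0.38 ± 0.1, adjusted p = 0.024). The 10 mitochondrial translation factors gave 1 higher, Tsfm (0.91 ± 0.26, adjusted p = 0.0374). Etf1 and Rpl22l1 kept their calls with each library left out, and the other 7 each lost theirs with at least 4 of the 6 libraries. The highest of these adjusted p-values was 0.104 for Dph3 without PGE2 replicate 2 and 0.0833 for Trnau1ap without PGE2 replicate 3. Without vehicle replicate 2 it was 0.107 for Ltv1, 0.105 for Dph5, 0.0899 for Sephs2, 0.097 for Secisbp2l and 0.118 for Tsfm. With the length and GC trend removed the adjusted p was 0.0569 for Ltv1, 0.0831 for Dph5, 0.158 for Secisbp2l (a value of −0.19), 0.0688 for Trnau1ap and 0.072 for Tsfm.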

How the data were processed

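RNA-seq was compared between 3 PGE2 and 3 vehicle libraries of mouse bone marrow neutrophils, grouped and numbered by their titles. The submitters' processing notes name the mm10 build and the tools RSEM, StringTie 2.1.3b, STAR, Bowtie2 and DESeq2. No source used here gives the role of each tool or the strand setting, and the labels name both a standard and a stranded TruSeq kit. The authors' series table gives estimated counts as whole numbers. The authors call them normalized, yet the library totals differ, so they were treated as raw estimated counts and rounded. TPM values are the authors' deposited ones and served for levels between genes. The table's 18 columns of other libraries were not used.

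Genes with at least 10 counts in at least 3 libraries were tested with edgeR 4.0.16 in R 4.3.3 (quasi-likelihood test, TMM scaling, Benjamini-Hochberg over 15947 genes, threshold 0.05). CPM values use TMM-scaled library sizes. The biological coefficient of variation was 22.4%. Same-numbered libraries deviated together weakly (r = 0.258, 0.174 and 0.187 over genes, against −0.166 to 0.002 for unlike numbers). Deviations were taken from the mean of each group's 3 libraries, so these r values are not independent. The replicate number was taken as pairing the libraries and used as a block in an alternative, though the labels do not say what it stands for. Other alternatives were each library left out, DESeq2 1.42.0, its size factors, library totals alone, other filters, a minimum log2 fold change of 0.5, limma 3.58.1 on log2(TPM + 1) and log2(TPM + 0.1) for genes with at least 1 TPM in at least 3 libraries, and 2 chosen after seeing the data (length and GC trends removed; hemoglobin genes left out). The code was tested on simulated data.

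The members and gene lists were chosen with earlier results of these data known. Values of all libraries are given for up to 3 members per class and direction with the smallest adjusted p, the class's most abundant member and members with a paralog or partner to compare. Up to 2 genes per direction are named from each other list, besides those chosen after their values were seen. Transcript lengths and shared windows of 100 bases came from GENCODE M21 and promoters from RefSeq (GRCm38.p6).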

Additional observations from a re-analysis of the deposited data

How the results depend on the processing

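No call was reversed under any alternative. Of the 21 called members, Eif1a, Eif3j1, Eif3j2, Eif3m, Eef1b2 and Eef2k passed in every alternative, and 10 passed with each library left out. With single libraries left out, 10 to 17 members were higher and 2 to 4 lower, and 1005 to 1541 genes of all tested were higher. In those fits 6.39 to 9.86% of all genes were higher and 10.3 to 14.5% lower. With a minimum log2 fold change of 0.5, 9 of 62 members were higher, against 7.56% of all genes. With length and GC trends removed, an alternative chosen after seeing the data, 3 members were lower, against 12.6% of all genes. With the replicate block added to that fit, 2535 genes were higher. The replicate block alone gave 2648 genes higher, against 1618 without it. On TPM, 967 genes were higher with a pseudocount of 1 and 953 with 0.1, and the median of all genes was −0.06 and −0.08, against 0.04 on counts. DESeq2's own test gave 21 of 62 members higher and 5 lower, against 12.6% and 17% of all genes. With hemoglobin genes left out, also chosen after seeing the data, the counts were 16 and 5, against 10.4% and 14.3% of all genes. All 21 calls stayed. Beyond the 9 members named in the report, the block changed no member's call. Methyltransferase genes near 3 CPM had few counts, which limits their precision. The causes of these differences were not tested.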
